A study of Homo sapiens with 12 samples.

Results

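The aminoacyl-tRNA synthetases described here are 36 of the 26364 genes in the count files, 20 cytosolic and 16 mitochondrial enzymes, and were chosen by symbol. All 36 were among the 12671 genes that passed the filter on low counts. They were followed in HL-60, an established human line of promyelocytic leukemia whose cells mature toward neutrophils when given all-trans retinoic acid (ATRA). The RNA-seq libraries form 4 groups of 3: HL-60 without ATRA (0 h) and HL-60 kept in ATRA at 1 µM for 4 h, for 2 d or for 4 d. All were grown in Iscove's medium with fetal bovine serum and penicillin-streptomycin. No untreated culture of the later times was analysed here, so time in ATRA and time in culture cannot be told apart. Whether the replicates came from separate cultures is not in the labels, and p-values here reflect the spread among these libraries, which may be technical.

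Each synthetase joins an amino acid to its tRNA, and the charged tRNA then brings that amino acid to the ribosome. Cells keep one enzyme set in the cytosol and another in mitochondria, both encoded in the nucleus. GARS and KARS serve both compartments, EPRS carries 2 activities in a single chain, and FARSA and FARSB are the alpha and beta subunits of a single enzyme. Part of the cytosolic set is held in the multi-synthetase complex with the scaffold proteins AIMP1, AIMP2 and EEF1E1. Many cytosolic synthetase genes are known targets of ATF4, the transcription factor of the amino acid response.

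The 12 libraries held 7866757 to 13658177 gene reads. MPO, which defines promyelocytes, ran from 6950 to 50300 CPM (counts per 1e+06 gene reads, after TMM scaling) over the libraries, while the lineage markers CD3D, MS4A1, HBB, PF4 and EPCAM never passed 0.641 CPM. Other markers on the same lists did: CD3E reached 7.32, COL1A1 12.6, CD79A 15.9 and ITGA2B 26.7 CPM, and their part in the results was not tested. CD38 and TGM2, genes known to respond to ATRA, averaged 83.6 and 1080 CPM at 4 d, against 1.48 and 0.319 CPM at 0 h. In 3 libraries genes of high GC content stood above their group mates: expression relative to those mates rose by 0.484 (0 h replicate 2), 0.361 (4 h replicate 3) and 0.309 (4 d replicate 1) on the log2 scale for each 10 points of GC content. Replicate 1 of 4 h had reads in 22265 genes, against 15198 to 15798 in the other libraries. Counts of calls against 0 h and between treated times are therefore given with and without the 3 libraries that stand apart by GC content. They were picked from these same data for differing from their mates, so calls gained without them are not separate support. That fit has fewer libraries at 0 h, 4 h and 4 d. It called 24.9%, 52.8% and 68.1% of all genes at 4 h, 2 d and 4 d against 0 h. With every library the shares were 6.23%, 35.6% and 57.8%.

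Of the 36 synthetase transcripts, 17 fell at 2 d and 25 at 4 d in ATRA against 0 h, and WARS alone rose. Calls are from edgeR's quasi-likelihood test at a Benjamini-Hochberg adjusted p under 0.05 over all 12671 genes. At 4 d against 0 h, 13 of 20 cytosolic and 12 of 16 mitochondrial synthetases fell, and 1 cytosolic gene and 0 mitochondrial genes rose. Among all tested genes, 57.8% were called in that comparison, 29.7% lower and 28.1% higher. The members' median log2 fold change at 4 d was -0.83 for the cytosolic and -1.02 for the mitochondrial set, against 0 for all tested genes. At least 2-fold falls were called for 10 cytosolic and 9 mitochondrial members, where 35.2% of all genes were called with a 2-fold change in either direction. Over any difference between times, 15 cytosolic and 12 mitochondrial members were called, where 63.2% of all genes were, and 18 and 15 when the 3 libraries that stand apart by GC content were left out (78.3% of all genes). When the 3 libraries that stand apart by GC content were left out, 17 cytosolic members were lower and 1 higher, and 12 mitochondrial members lower and 2 higher. All genes were then called more often too, 68.1% against 57.8%.

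At 2 d against 0 h, 13 cytosolic synthetases and 4 mitochondrial ones were lower, 1 cytosolic gene was higher, and 18.7% of all tested genes were called lower. Median log2 fold changes at 2 d were -0.65 (cytosolic) and -0.40 (mitochondrial), against -0.02 for all genes. Without the 3 libraries that stand apart by GC content, 17 cytosolic members were lower and 1 higher at 2 d, with 52.8% of all genes then called. The mitochondrial count was 11 lower without them, and 0 to 6 when single libraries were left out. It was 0 without 2 d replicate 3, 1 without 2 d replicate 1 or 2, and 2 without 0 h replicate 1 or 3. The difference between the sets was not tested. At 4 h against 0 h, 1 cytosolic gene was higher and none was lower, where 2% of all genes were called higher and 4.23% lower. No mitochondrial synthetase was called at 4 h by edgeR's quasi-likelihood test, 3 had an unadjusted p under 0.05, limma-voom also called 0 and DESeq2 called 1. With those 3 libraries left out, 3 cytosolic members and 1 mitochondrial member were called at 4 h, when 24.9% of all genes were called. That setting keeps 4 h replicate 1, which had reads in 22265 genes. When a different set of 3 libraries, including that replicate, was dropped, 5.32% of all genes were called at 4 h. FARSA, EPRS and IARS2 were then not called at 4 h. The comparisons of 4 h, 2 d and 4 d share the 0 h libraries.

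**Figure D1:**
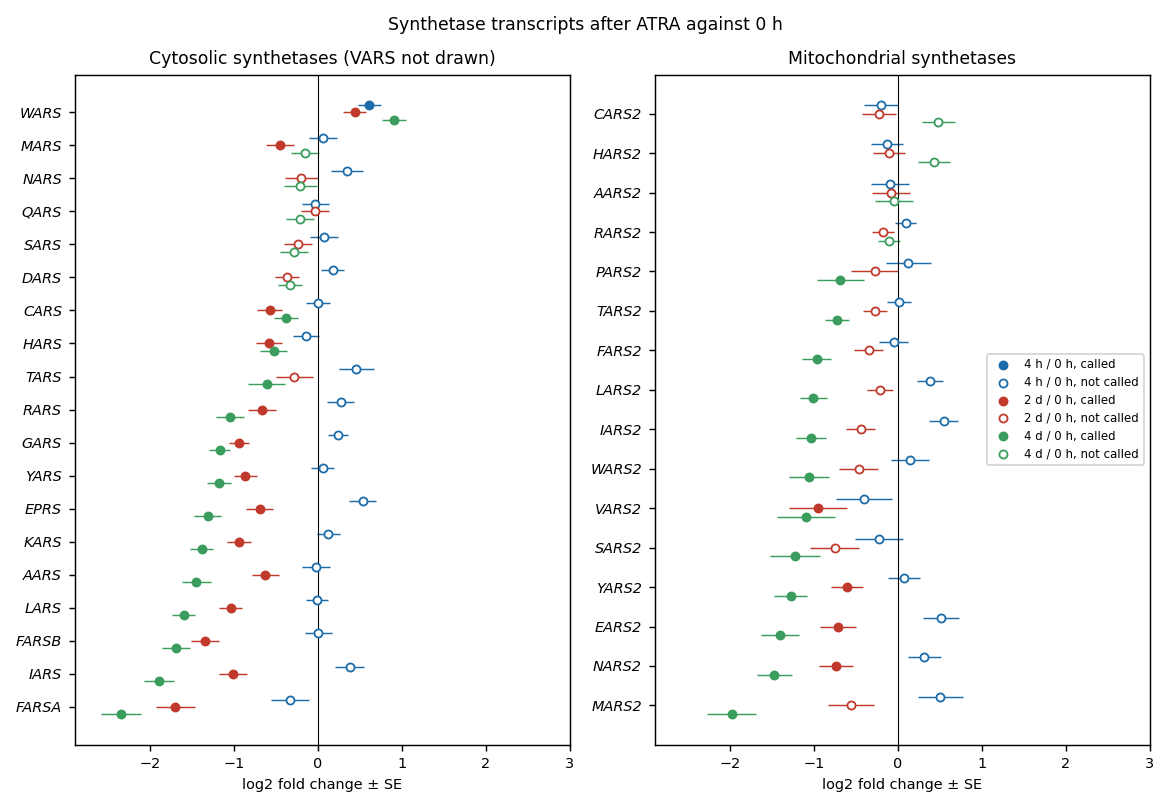
Log2 fold change ± SE (horizontal axis) of each synthetase (rows) at 4 h, 2 d and 4 d against 0 h, cytosolic on the left and mitochondrial on the right; filled points were called and open ones were not. Most 2 d and 4 d points lie left of 0, with FARSA lowest at -2.35, while WARS lies right of 0 at every time. VARS, whose replicates differed widely, is not drawn.

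Summed over the 20 cytosolic genes, the level was 3499 ± 172 CPM at 0 h, 3686 ± 293 CPM at 4 h, 2131 ± 69.6 CPM at 2 d and 1855 ± 96.4 CPM at 4 d (SD, n = 3 per time). The 16 mitochondrial genes summed to 828.1 ± 65.7, 846.8 ± 75.4, 642.6 ± 11.9 and 679.5 ± 134 CPM at the same times. Cytosolic sums of 2 d and 4 d, and mitochondrial sums of 2 d, lay below all those of 0 h. Mitochondrial sums of 4 d overlapped 0 h through 4 d replicate 1, which had 833.8 CPM, where replicates 2 and 3 had 595.6 and 609.2 CPM. CARS2, the largest mitochondrial member, contributed 405, 248 and 259.5 CPM to those 4 d sums. In bulk RNA, fewer cells with a transcript and less of it per cell cannot be told apart.

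Levels were compared between genes per kilobase of exon. At 0 h FARSA was the most abundant synthetase transcript, with 381.6 CPM per kb, and its partner subunit FARSB had 30.9 CPM per kb. At 4 d FARSA ranked 3, CARS2, the mitochondrial cysteinyl enzyme, ranked first at 161.8 CPM per kb, and WARS had moved to rank 4, against rank 12 at 0 h. IARS, the isoleucyl enzyme, ranked 26 at 4 d, against 13 at 0 h. FARSA alone made up 7.83% to 9.47% of cytosolic synthetase reads at 4 d, against 18.3% to 29% at 0 h.

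Promoter stretches are shown for 5 of the 6 cytosolic members in which a search found TGATGNAA, the core letters of the element bound by ATF4 with a C/EBP partner, since ATF4 is known to act on synthetase genes through such elements. RefSeq promoters (GRCh38.p14, 250 bases before to 50 after the gene start) were matched for 30 of the 36 members, and not for DARS, LARS, VARS, YARS, AARS2 and VARS2. Where a gene had several entries, the one listed first was used. The start used lay 7007 bases after the outermost one in CARS2 and 11073 bases after it in FARS2. Both genes are counted at those inner starts. Both strands were searched, and capitals mark the match. The windows are chr16:70289678-70289735 (minus strand) for AARS, chr11:3057414-3057467 (minus strand) for CARS, chr9:92293699-92293752 (minus strand) for IARS, chr12:57488022-57488075 (plus strand) for MARS and chr18:57621811-57621864 (minus strand) for NARS. They are read 5′ to 3′ on the gene's strand, in the build of the RefSeq table, where the counts were made on hg19. The TARS window is not printed.
AARS: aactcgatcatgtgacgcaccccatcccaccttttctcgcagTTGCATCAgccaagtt
CARS: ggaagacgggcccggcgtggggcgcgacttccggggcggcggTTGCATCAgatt
IARS: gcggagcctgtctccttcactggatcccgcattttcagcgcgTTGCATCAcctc
MARS: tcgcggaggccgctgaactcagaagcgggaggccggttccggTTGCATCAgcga
NARS: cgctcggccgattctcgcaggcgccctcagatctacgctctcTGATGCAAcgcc

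The match stands within a few bases of the gene start in CARS and MARS, begins 13 bases before it in IARS and 15 after it in NARS, and lies 187 bases before it in AARS. In TARS it stands at a start 269 bases after the outermost one, whose own window held no match. A second entry for GARS, not counted here, held a match. The same 8 letters, TTGCATCA or their complement TGATGCAA, filled the motif in all 6. TGATGNAA was present in 6 of 16 cytosolic promoters (37.5%) and 1 of 14 mitochondrial ones (7.1%), against 2.5% of 15843 protein-coding promoters. GGGCGG, the GC box letters, was in 11 of 16 cytosolic and 10 of 14 mitochondrial promoters, against 58.5% of all. CACGTG, the E-box letters known from MYC, was in 1 of 16 and 3 of 14, against 8.9%. The 6 genes with TGATGNAA had a median log2 fold change of -0.50 at 4 d against 0 h, with 4 called lower. The 10 other matched cytosolic genes had -1.11, with 7 called lower. Of all tested genes, 29.7% were called lower in that comparison. The difference between the 2 sets was not tested. Fold changes of both sets overlapped, from -1.89 to -0.16 with the letters and from -2.35 to 0.90 without. A match is a description of the letters and not of binding.

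FARSA and FARSB together form the phenylalanyl enzyme. FARSA had the largest called fall of the cytosolic set at 2 d and 4 d, and FARSB the next largest at 2 d. FARSA (chromosome 19) measured 619, 987 and 788 CPM at 0 h, 487, 568 and 846 CPM at 4 h, 244, 256 and 237 CPM at 2 d and 186, 139.6 and 145 CPM at 4 d in replicates 1, 2 and 3. All libraries of 2 d and 4 d lay below all of 0 h, and the high value of 0 h is replicate 2, one of the libraries that stand apart by GC content. Its transcript fell by 1.70 ± 0.23 at 2 d and by 2.35 ± 0.24 at 4 d on the log2 scale against 0 h (edgeR adjusted p = 1.02e-04 and 2.35e-06). FARSB (chromosome 2) had 112, 99.0 and 100.3 CPM at 0 h, 97.4, 99.6 and 116 CPM at 4 h, 34.0, 42.5 and 46.2 CPM at 2 d and 37.5, 29.6 and 29.2 CPM at 4 d. Its 4 h libraries overlapped 0 h, those of 2 d and 4 d were all lower, and the fall at 4 d was 1.70 ± 0.16 on the log2 scale (edgeR adjusted p = 1.61e-06). At 4 h the log2 fold change was -0.33 ± 0.23 for FARSA and 0.00 ± 0.16 for FARSB, neither called. FARSA was called lower at 4 h when the 3 libraries apart by GC content were left out, at -0.41 with an adjusted p of 0.0308 by edgeR. That was the only 1 of 25 alternatives to call FARSA at 4 h. Dropping the set of 3 libraries that includes 4 h replicate 1 gave no such call.

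**Figure D2:**
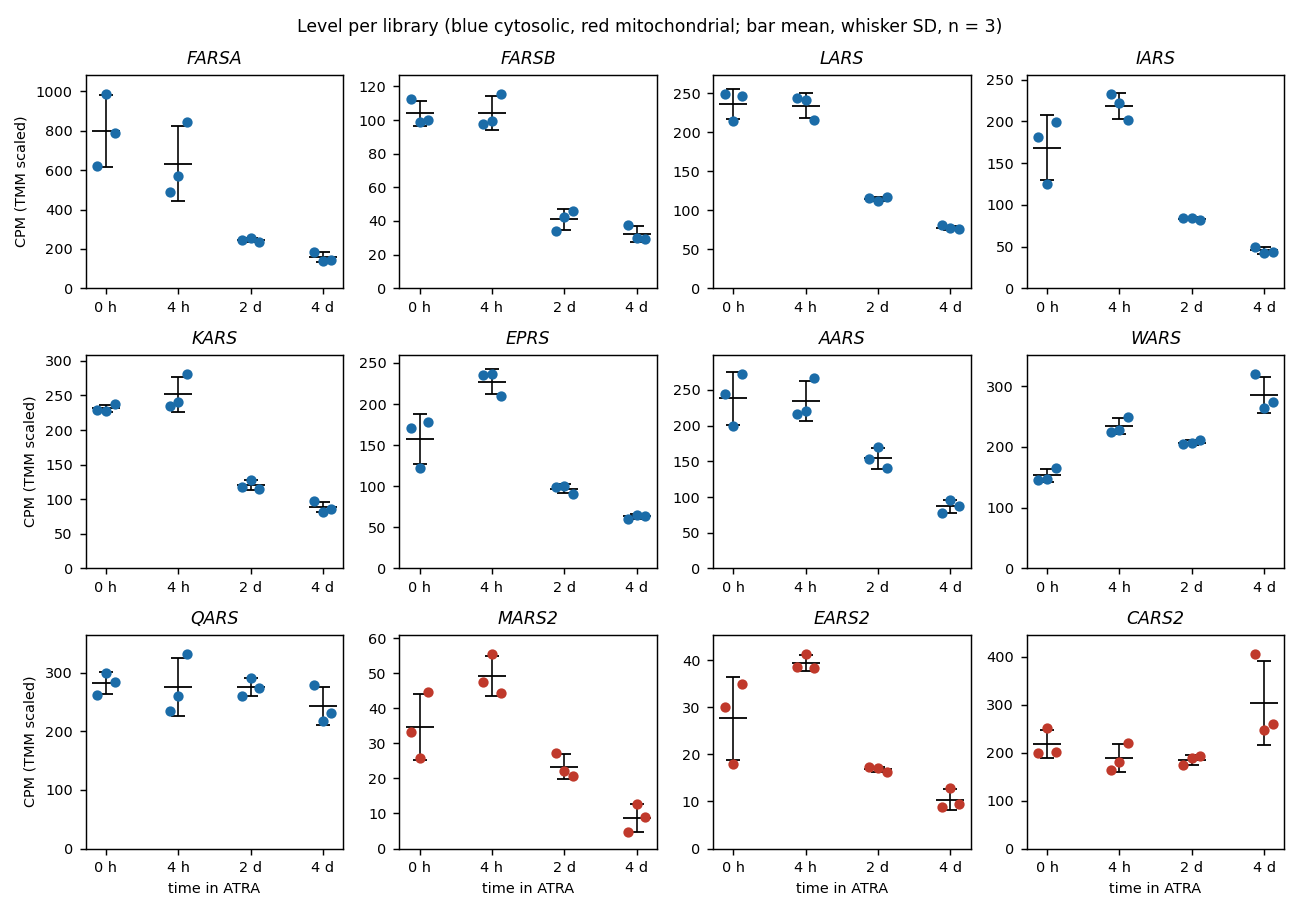
TMM-scaled CPM (vertical axis) of 12 synthetases in each library (points) at 0 h, 4 h, 2 d and 4 d in ATRA (horizontal axis), with the mean as a bar and the SD as whiskers, n = 3. FARSA to AARS drop between 4 h and 2 d, WARS is above 0 h at each later time, and QARS stays between 217 and 331 CPM throughout.

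Of the 8 enzymes listed for the multi-synthetase complex (DARS, EPRS, IARS, KARS, LARS, MARS, QARS and RARS), 6 fell at 2 d and 5 at 4 d against 0 h, and none rose, where 18.7% of all genes were called lower at 2 d and 29.7% at 4 d. Their median log2 fold change was -0.68 at 2 d and -1.18 at 4 d. IARS, the isoleucyl enzyme (chromosome 9), measured 181, 125 and 199.5 CPM at 0 h, 233, 222 and 202 CPM at 4 h, 84.8, 83.9 and 81.9 CPM at 2 d and 49.6, 42.6 and 43.9 CPM at 4 d. Its 4 h libraries were all above 0 h and its 2 d and 4 d libraries all below, with log2 fold changes of 0.38 ± 0.17, not called, -1.01 ± 0.17 and -1.89 ± 0.18 (edgeR adjusted p at 4 d = 1.20e-06). LARS, the leucyl enzyme (chromosome 5), had 249, 214 and 246 CPM at 0 h, 244, 242 and 215 CPM at 4 h, 116, 112 and 117 CPM at 2 d and 80.5, 77.3 and 75.4 CPM at 4 d. At 4 h its libraries overlapped 0 h, and at 4 d it was lower by 1.60 ± 0.14 (edgeR adjusted p = 5.48e-07).

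KARS, the lysyl enzyme of cytosol and mitochondria (chromosome 16), gave 229, 228 and 238 CPM at 0 h, 234, 240.1 and 281 CPM at 4 h, 117, 128 and 115 CPM at 2 d and 96.7, 82.1 and 86.3 CPM at 4 d. Its 0 h libraries lay within 10 CPM of each other, and the 2 d and 4 d libraries were all below them, at -0.94 ± 0.14 and -1.39 ± 0.14 log2 (edgeR adjusted p = 2.11e-04 and 2.74e-06). EPRS, which charges both glutamate and proline tRNAs (chromosome 1), had 170.5, 123 and 178 CPM at 0 h, 235, 236 and 210.1 CPM at 4 h, 99.4, 101 and 91.1 CPM at 2 d and 60.4, 65.2 and 64.2 CPM at 4 d. All 4 h libraries were above those of 0 h, at 0.53 ± 0.16 log2 and an edgeR adjusted p of 0.0644, and without the 3 libraries apart by GC content this became 0.44 with an adjusted p of 0.00805. EPRS was called at 4 h in 3 of 25 alternatives, and not when the dropped set of 3 included 4 h replicate 1. By 4 d EPRS fell by 1.31 ± 0.16 (edgeR adjusted p = 1.35e-05). RARS, the arginyl enzyme (chromosome 5), measured 90.1, 58.9 and 78.8 CPM at 0 h, 88.3, 89.1 and 97.5 CPM at 4 h, 45.5, 48.0 and 49.99 CPM at 2 d and 36.5, 40.9 and 32.8 CPM at 4 d. It too was lower in every library of 2 d and 4 d than at 0 h, by 1.05 ± 0.16 at 4 d (edgeR adjusted p = 1.16e-04).

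The other complex members moved less. MARS, the methionyl enzyme (chromosome 12), had 157, 179 and 183 CPM at 0 h, 167, 181 and 191 CPM at 4 h, 120.2, 128 and 132 CPM at 2 d and 193, 129 and 144 CPM at 4 d. It was called lower at 2 d (-0.45 ± 0.17 log2, edgeR adjusted p = 0.0474) but not at 4 d, where replicate 1 stood above all 0 h libraries. The 2 d call was lost without any 1 of 8 libraries, all 3 of 0 h, all 3 of 2 d, 4 h replicate 2 or 4 d replicate 3, at an edgeR adjusted p of 0.0514 to 0.148. In RefSeq the MARS span overlaps that of ARHGAP9 by 757 bases, and ARHGAP9 had 14682, 7368 and 9649 reads at 4 d, against 1877, 4202 and 1983 at 0 h. Strand use in the counting is not given in the sources used here, so reads of the shared stretch cannot be assigned, and their part in the MARS values was not tested. The same holds for EARS2, FARS2, CARS2 and YARS, whose spans overlap GGA2, LYRM4, ING1 and S100PBP by 3606, 11017, 900 and 797 bases. DARS, the aspartyl enzyme, averaged 47.1 ± 4.25 CPM at 4 d and 59.4 ± 6.92 CPM at 0 h (SD, n = 3 each), without overlap but also without a call (-0.34 ± 0.14 log2, edgeR adjusted p = 0.0556). It was called when the 3 libraries apart by GC content were left out, at -0.44 with an adjusted p of 0.00623 by edgeR. QARS, the glutaminyl enzyme, averaged 242 ± 32.3 CPM at 4 d and 282 ± 18.7 CPM at 0 h, with overlapping libraries and no call. With the same 3 libraries left out, QARS and MARS were called lower at 4 d too. QARS was at -0.28 with an edgeR adjusted p of 0.0433 and MARS at -0.32 with an edgeR adjusted p of 0.025. In that fit 68.1% of all genes were called at 4 d, against 57.8% with every library.

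Among the free-standing cytosolic enzymes, AARS, GARS and YARS fell at 2 d and 4 d against 0 h. AARS, the alanyl enzyme (chromosome 16), had 244, 199 and 272 CPM at 0 h, 216, 221 and 267 CPM at 4 h, 153, 169.5 and 140.5 CPM at 2 d and 77.9, 96.2 and 87.6 CPM at 4 d. The steps at 2 d and 4 d each left no overlap with the time before, and by 4 d the fall was 1.45 ± 0.17 on the log2 scale (edgeR adjusted p = 8.86e-06). At 2 d the AARS call (-0.63 ± 0.17, adjusted p = 0.0103 by edgeR) was lost without 2 d replicate 3, at an edgeR adjusted p of 0.0516. GARS, the glycyl enzyme (chromosome 7), gave 116, 107 and 117 CPM at 0 h, 128, 129 and 143 CPM at 4 h, 60.3, 58.2 and 58.4 CPM at 2 d and 50.2, 50.5 and 50.5 CPM at 4 d. The 4 d libraries differed by less than 1 CPM, and the fall was 1.17 ± 0.12 (edgeR adjusted p = 3.99e-06). YARS, the tyrosyl enzyme (chromosome 1), measured 206, 174 and 201 CPM at 0 h, 189, 193 and 220.4 CPM at 4 h, 98.0, 109 and 112 CPM at 2 d and 88.0, 82.5 and 85.6 CPM at 4 d. Its libraries split into a higher set of 0 h and 4 h and a lower set of 2 d and 4 d, with -1.18 ± 0.14 log2 at 4 d (edgeR adjusted p = 1.03e-05).

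HARS and CARS fell by smaller amounts. HARS, the histidyl enzyme (chromosome 5), had 74.7, 83.3 and 74.3 CPM at 0 h, 63.7, 65.2 and 81.8 CPM at 4 h, 48.9, 54.2 and 51.2 CPM at 2 d and 63.3, 46.2 and 51.4 CPM at 4 d. At 4 d it was -0.53 ± 0.15 log2 against 0 h, with no overlap (edgeR adjusted p = 0.00988). HARS and HARS2 are adjacent genes of similar sequence. Reads that aligned to more than 1 place were kept apart from the gene counts. Reads of shared sequence may therefore be missing from both genes, and their separate values are uncertain. CARS, the cysteinyl enzyme (chromosome 11), measured 45.0, 50.03 and 41.7 CPM at 0 h, 41.9, 44.4 and 50.3 CPM at 4 h, 28.3, 31.2 and 32.0 CPM at 2 d and 40.1, 31.7 and 32.8 CPM at 4 d. It was lower at 2 d by 0.58 ± 0.14 and at 4 d by 0.39 ± 0.14 (edgeR adjusted p = 0.00721 and 0.0331). The 4 d call of CARS was lost without 0 h replicate 1 or 2 or 4 d replicate 2 or 3, at an edgeR adjusted p of 0.0559 to 0.115. It was also lost with library totals alone, no filter on low counts, a replicate block and the 6 libraries compared alone. CARS was called at 4 d in 17 of 25 alternatives.

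TARS, the threonyl enzyme, averaged 60.1 ± 9.49 CPM at 4 d and 91.9 ± 29.1 CPM at 0 h (SD, n = 3 each). It was called lower (-0.61 ± 0.22 log2, edgeR adjusted p = 0.0258), though 0 h replicate 2 lay among the 4 d libraries. Without 0 h replicate 1, 0 h replicate 3 or 4 d replicate 1 that call was lost, at an edgeR adjusted p of 0.0822 to 0.126. Library totals alone, a replicate block and the 6 libraries compared alone lost it too, and 19 of 25 alternatives kept it. NARS, the asparaginyl enzyme, gave 138, 208 and 196 CPM at 4 d, against 238, 158 and 233 CPM at 0 h, and SARS, the seryl enzyme, 54.1, 63.9 and 57.4 CPM against 71.5, 58.2 and 84.0 CPM. Both sets overlapped and neither gene was called at 2 d or 4 d in the fit to all libraries. With the 3 libraries apart by GC content left out, both were called lower at 2 d. NARS was at -0.38 with an edgeR adjusted p of 0.00512 and SARS at -0.37 with an edgeR adjusted p of 0.0106. SARS was also called at 4 d, at -0.36 with an edgeR adjusted p of 0.0173. That fit called 52.8% of all genes at 2 d and 68.1% at 4 d.

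WARS, the tryptophanyl enzyme and a gene known to be induced by interferon gamma (chromosome 14), was the only synthetase called higher against 0 h in the fit to all 12 libraries. It measured 146, 148 and 166 CPM at 0 h, 225, 228 and 249 CPM at 4 h, 204, 206 and 212 CPM at 2 d and 319.8, 264 and 274 CPM at 4 d. Every treated library lay above every 0 h library, and 4 d was also above 2 d without overlap. The log2 fold changes were 0.61 ± 0.14 at 4 h, 0.44 ± 0.14 at 2 d and 0.90 ± 0.14 at 4 d (edgeR adjusted p = 0.0219, 0.0273 and 1.12e-04). The 4 d call held in all 25 alternatives. The 4 h call was lost without 0 h replicate 1, 4 h replicate 1 or 4 h replicate 2, at an edgeR adjusted p of 0.0583 to 0.0888. The 2 d call was lost without 0 h replicate 1 or any 2 d replicate, at an edgeR adjusted p of 0.0676 to 0.0784.

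Of the mitochondrial enzymes, 12 of 16 fell at 4 d against 0 h. MARS2, the methionyl enzyme (chromosome 2), had 33.4, 25.8 and 44.7 CPM at 0 h, 47.6, 55.5 and 44.4 CPM at 4 h, 27.4, 22.1 and 20.7 CPM at 2 d and 4.68, 12.6 and 8.97 CPM at 4 d. Every 4 d library was below every earlier one, and the spread within 4 d was wide, with a coefficient of variation of 45.3%. MARS2 fell by 1.98 ± 0.29 at 4 d (edgeR adjusted p = 6.93e-05), the largest fold change of the mitochondrial set. NARS2, the asparaginyl enzyme (chromosome 11), measured 27.8, 17.0 and 25.0 CPM at 0 h, 28.9, 30.9 and 26.8 CPM at 4 h, 14.5, 15.3 and 11.9 CPM at 2 d and 6.65, 9.91 and 8.54 CPM at 4 d. Its fold change was -0.74 ± 0.20 at 2 d and -1.47 ± 0.21 at 4 d on the log2 scale (edgeR adjusted p = 0.0121 and 4.77e-05), and the 2 d call was lost without 0 h replicate 1 or 2 d replicate 3, at an edgeR adjusted p of 0.0549 to 0.0564. Cytosolic NARS was not called against 0 h at either time in the fit to all libraries.

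EARS2, the glutamyl enzyme of mitochondria (chromosome 16), had 30.1, 17.9 and 35.1 CPM at 0 h, 38.6, 41.3 and 38.4 CPM at 4 h, 17.3, 17.0 and 16.2 CPM at 2 d and 8.83, 12.9 and 9.49 CPM at 4 d. The 4 h libraries stood above all 0 h ones without a call (0.51 ± 0.21 log2), and the later libraries stood below. At 2 d EARS2 was at -0.71 ± 0.22 and at 4 d at -1.41 ± 0.22 log2 against 0 h (edgeR adjusted p = 0.0214 and 1.29e-04). The 2 d call was lost without 0 h replicate 1 or 3 or any 2 d replicate, at an edgeR adjusted p of 0.0592 to 0.103. YARS2, the tyrosyl enzyme (chromosome 12), gave 34.2, 27.4 and 36.7 CPM at 0 h, 32.3, 38.0 and 33.1 CPM at 4 h, 22.9, 22.02 and 19.3 CPM at 2 d and 9.97, 17.2 and 13.2 CPM at 4 d. All libraries of 2 d and 4 d were below 0 h, at -0.61 ± 0.19 and -1.28 ± 0.19 log2 (edgeR adjusted p = 0.0234 and 8.78e-05). Without 0 h replicate 1 or 3 or any 2 d replicate its 2 d call was lost, at an edgeR adjusted p of 0.0517 to 0.0875.

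VARS2, the valyl enzyme of mitochondria (chromosome 6), measured 45.3, 101 and 43.2 CPM at 0 h, 37.1, 38.6 and 67.5 CPM at 4 h, 29.4, 34.5 and 34.2 CPM at 2 d and 41.8, 25.7 and 21.5 CPM at 4 d. The 0 h value of replicate 2 was more than 2 times that of either mate, and the coefficient of variation at 0 h was 52.1%. Calls at 2 d and 4 d (-0.95 ± 0.34 and -1.09 ± 0.34 log2, edgeR adjusted p = 0.0449 and 0.0148) did not hold throughout. The 2 d call was lost without any 2 d replicate, 0 h replicate 2, 4 h replicate 2 or 4 d replicate 2, at an edgeR adjusted p of 0.0503 to 0.237, and the 4 d call without 0 h replicate 2 or 4 d replicate 2 or 3, at an edgeR adjusted p of 0.0532 to 0.0861. SARS2, the seryl enzyme, showed the same high 0 h replicate 2: 36.4, 20.1 and 25.4 CPM at 4 d, against 41.8, 94.2 and 55.7 CPM at 0 h. It was lower at 4 d without overlap, by 1.23 ± 0.30 (edgeR adjusted p = 0.00309).

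The other mitochondrial members that fell at 4 d were WARS2 (-1.06 log2), IARS2 (-1.03), LARS2 (-1.01), FARS2 (-0.97), TARS2 (-0.72) and PARS2 (-0.69), which charge tryptophan, isoleucine, leucine, phenylalanine, threonine and proline tRNAs. None of the first 5 overlapped between 4 d and 0 h, and over all genes 29.9% lay below 0 h without overlap. PARS2 did overlap, with 5.09, 5.85 and 4.01 CPM at 4 d, against 7.45, 5.28 and 11.4 CPM at 0 h. Its call (edgeR adjusted p = 0.049) was lost without any 2 d replicate or without 0 h replicate 1 or 3. It was also lost without 4 h replicate 1 or 2, or 4 d replicate 1 or 3. The edgeR adjusted p was 0.0502 to 0.282 in those fits. DESeq2 and limma-voom did not call PARS2 at 4 d, and 8 of 25 alternatives called it. IARS2 measured 109.5, 110.1 and 93.2 CPM at 4 h, against 75.3, 54.9 and 84.8 CPM at 0 h. These did not overlap, without a call (0.54 ± 0.17 log2, edgeR adjusted p = 0.0806). Without the 3 libraries apart by GC content the value became 0.46 with an adjusted p of 0.00786. IARS2 was called at 4 h in 4 of 25 alternatives, and not when the dropped set of 3 included 4 h replicate 1.

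CARS2, HARS2, AARS2 and RARS2 were not called at 4 d against 0 h. CARS2, the cysteinyl enzyme (chromosome 13), had 199.8, 251 and 202 CPM at 0 h, 164, 180.1 and 221 CPM at 4 h, 174, 189 and 193 CPM at 2 d and 405, 248 and 259.5 CPM at 4 d. Replicate 1 of 4 d was far above its mates, and 4 d replicate 2 was below 0 h replicate 2. Its fold change at 4 d was 0.48 ± 0.20 log2 against 0 h (edgeR adjusted p = 0.0556) and 0.71 ± 0.20 against 2 d (adjusted p = 0.0198), the second without overlap. HARS2, the histidyl enzyme (chromosome 5), gave 38.7, 50.3 and 37.8 CPM at 0 h, 35.4, 36.7 and 43.5 CPM at 4 h, 35.4, 39.1 and 43.2 CPM at 2 d and 74.7, 47.1 and 49.5 CPM at 4 d. Here too 4 d replicate 1 was the highest library, and the fold change at 4 d was 0.43 ± 0.19 log2 (edgeR adjusted p = 0.0677). Without the 3 libraries apart by GC content both CARS2 and HARS2 were called higher at 4 d, beside 68.1% of all genes called. CARS2 was at 0.34 with an edgeR adjusted p of 0.0146 and HARS2 at 0.34 with an edgeR adjusted p of 0.0191. The call of CARS2 against 2 d was lost without any 2 d replicate or without 4 d replicate 1, at an edgeR adjusted p of 0.0513 to 0.0787. AARS2, the alanyl enzyme, averaged 84.8 ± 25.9 CPM at 4 d and 87.5 ± 22.1 CPM at 0 h, and RARS2, the arginyl enzyme, 24.8 ± 0.766 and 26.8 ± 2.92 CPM (SD, n = 3 each).

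The log2 ratio of cytosolic to mitochondrial CPM, with 0.5 CPM added, was taken in each library for 13 amino acids. Phenylalanine, glutamate and proline also have enzymes of both kinds in the set but were left out, since FARSA and FARSB share an activity and EPRS holds both of the others. HARS/HARS2 measured -0.24, -0.03 and 0.05 at 4 d, against 0.94, 0.72 and 0.97 at 0 h. The 0 h ratios were all above 0.5 and the 4 d ratios near 0. The ratios are not scaled by exon length, so 0 does not mean equal levels. Per kilobase of exon, HARS averaged 12.7 and HARS2 20.1 CPM at 4 d. AARS/AARS2 averaged 0.08 ± 0.58 at 4 d and 1.46 ± 0.57 at 0 h (SD, n = 3 each). The ratios of CARS, IARS, LARS and RARS to their mitochondrial partners were likewise lower at 4 d without overlap, with differences from 0 h of -0.84, -0.85, -0.60 and -0.92. MARS/MARS2 ran the other way, with 5.22, 3.30 and 3.93 at 4 d, against 2.22, 2.77 and 2.02 at 0 h. The 5.22 is from 4 d replicate 1, which stands apart by GC content and where MARS2 differed from its mates by -1.15 log2. The part of ARHGAP9 reads in the MARS values was not tested, and the separate values of HARS and HARS2 are uncertain. NARS/NARS2 and WARS/WARS2 were also higher at 4 d without overlap, by 1.20 and 1.90. The ratios of SARS, TARS, VARS and YARS overlapped between 4 d and 0 h. With 3 libraries a side an exact permutation test cannot go below p = 0.1, so none was made. How often ratios of other gene pairs separate in this way was not counted.

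**Figure D3:**
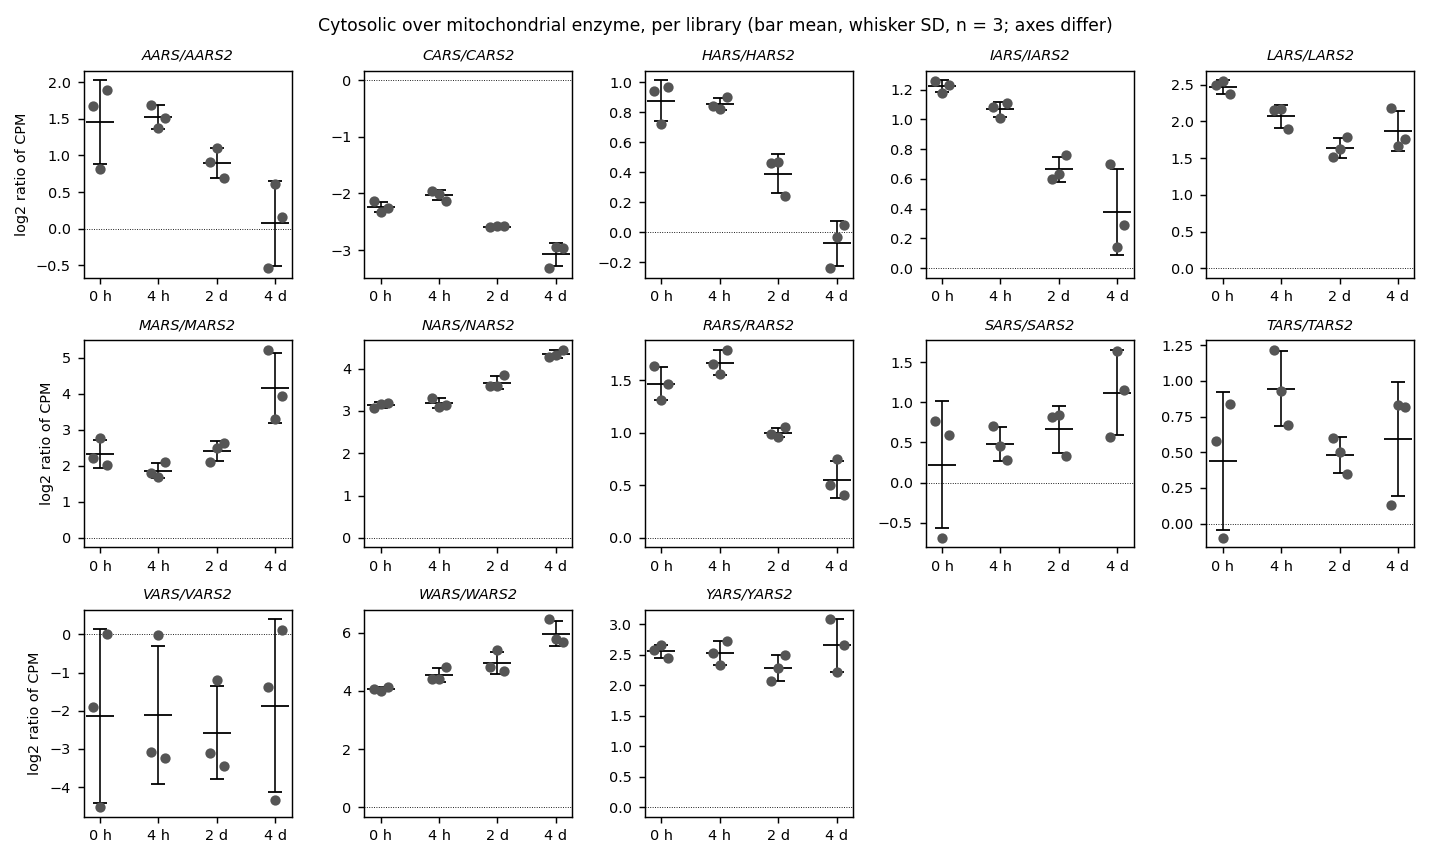
Log2 ratio of cytosolic to mitochondrial CPM (vertical axis) for 13 amino acids served by a single gene of each kind, in each library (points) at 0 h, 4 h, 2 d and 4 d, with the mean as a bar and the SD as whiskers, n = 3; axes differ between panels. HARS/HARS2 drops to about 0 at 4 d, while MARS/MARS2, NARS/NARS2 and WARS/WARS2 lie above their 0 h values. CPM is not scaled by exon length here, so 0 does not mean equal levels.

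VARS, the cytosolic valyl enzyme (chromosome 6), varied between replicates more than any other member. Its reads were 129, 43 and 442 at 0 h, 43, 525 and 79 at 4 h, 35, 196 and 22 at 2 d, and 150, 8 and 268 at 4 d, in replicates 1, 2 and 3. The reads of each time spanned more than an 8-fold range, and no replicate number was high throughout. The coefficient of variation of its CPM was 106%, 117%, 101% and 86.5% at 0 h, 4 h, 2 d and 4 d, where the median over 12019 genes averaging at least 1 CPM was 20.5%, 16.9%, 10.6% and 17.4%. No more than 0.541% of those genes varied as much at any time. Its fold changes of -0.25 ± 1.03, -1.47 ± 1.08 and -0.56 ± 1.04 log2 at 4 h, 2 d and 4 d against 0 h were not called, and its libraries overlapped in each comparison.

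VARS and VARS2 lie in the major histocompatibility region of chromosome 6, and several genes near them had few reads or 1 library far above the rest. CLIC1, a chloride channel gene, had 16 to 51 reads in 11 libraries and 605 in 2 d replicate 3. LSM2, an RNA-binding gene, had 3 to 17 reads and 32 in 4 d replicate 3. VWA7, MSH5, HSPA1L and HSPA1A never passed 4 reads. Directly beside VARS2, GTF2H4 had 85 to 245 reads, with no library far above the rest. Further from VARS2, FLOT1, a membrane raft gene, had 270 and 170 reads in 4 h replicates 1 and 2 and 11 to 56 in the others. The library with the high CLIC1 count had the fewest VARS reads of its time, and the library with the high LSM2 count had the most. Distributions of hg19 can carry alternate copies of this region, and whether the authors' index did is not given in the sources used here, so the VARS and VARS2 counts are uncertain. What sets the spread of VARS was not tested.

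**Figure D4:**
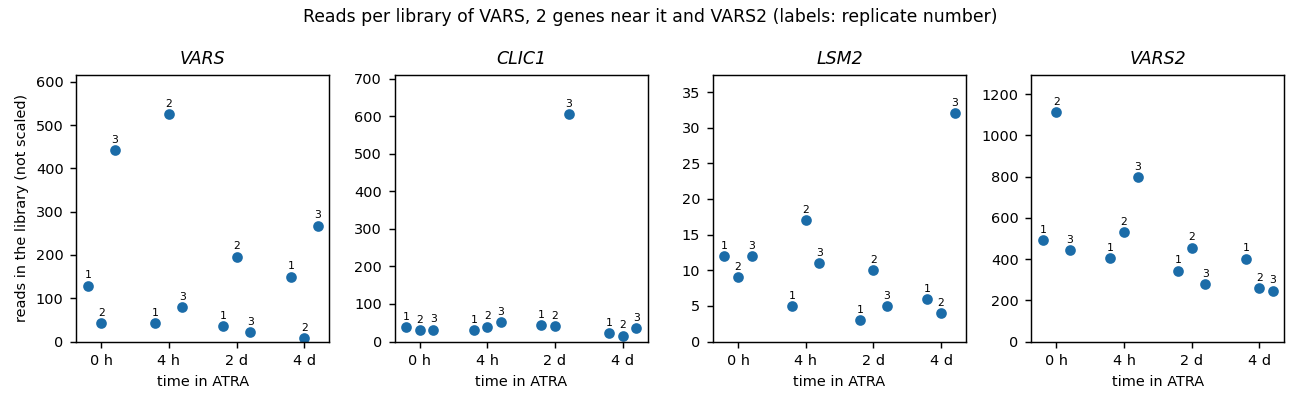
Unscaled reads per library (vertical axis) of VARS, of CLIC1 and LSM2 near it, and of VARS2 at each time in ATRA (horizontal axis), with 1 point per library labelled by replicate number. VARS reaches 525 reads in 4 h replicate 2 and 8 in 4 d replicate 2, and CLIC1 has a single high library at 2 d.

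GC content followed the 4 h fold changes of the synthetases. Over the 36 members, Spearman's rank correlation between GC content and log2 fold change against 0 h was -0.59 at 4 h, 0.03 at 2 d and 0.18 at 4 d, given as a description since the members share the same libraries. Over 8402 genes averaging at least 10 CPM it was -0.56 at 4 h, -0.19 at 2 d and -0.04 at 4 d. All 4 h libraries lay above all 0 h ones for 6 cytosolic and 3 mitochondrial members, where 13% of all genes did so. Of these, EPRS, IARS, TARS, IARS2 and NARS had a GC content of 43.2% to 44.3%, and GARS, LARS2, EARS2 and WARS one of 48.6% to 51.8%. FARSA (60.3%), VARS2 (59.3%) and SARS2 (61.2%) had negative 4 h values, with overlap. In 0 h replicate 2, VARS2 stood 1.19, SARS2 0.96 and FARSA 0.50 above their mates on the log2 scale, and NARS stood 0.58 below (a difference of -0.58). In 4 h replicate 3 the differences of VARS2, SARS2, FARSA and NARS were 0.83, 0.64, 0.69 and -0.21. In 4 d replicate 1 they were 0.82, 0.68, 0.39 and -0.55. The part of GC content in the 4 h values was not tested.

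**Figure D5:**
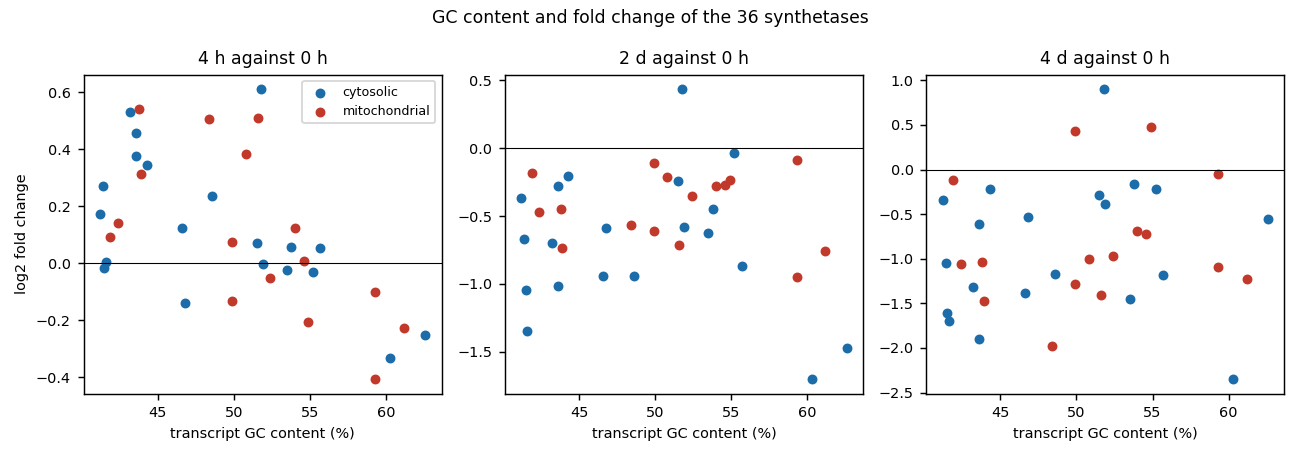
Log2 fold change against 0 h (vertical axis) of the 36 synthetases by GC content in percent (horizontal axis) at 4 h, 2 d and 4 d, cytosolic and mitochondrial members in separate colours. At 4 h the points slope down, with a rank correlation of -0.59, and at 2 d and 4 d they do not.

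Set against 4 h, 2 d had 16 cytosolic and 6 mitochondrial members lower and none higher, where 18% of all genes were called lower. With the 3 libraries apart by GC content left out, 16 cytosolic and 8 mitochondrial members were called, beside 52.5% of all genes. HARS, MARS, NARS and TARS were among them. The calls of HARS, MARS and NARS were each lost without any 2 d replicate, at an edgeR adjusted p of up to 0.124. They were also lost without 4 h replicate 2 (all 3 genes), 4 h replicate 3 (HARS and MARS), 4 h replicate 1 (NARS), or 0 h replicate 3 or 4 d replicate 3 (HARS and NARS). That of TARS was lost without 2 d replicate 1 or 3, at an edgeR adjusted p of 0.054 to 0.0712. Between 2 d and 4 d, 6 cytosolic and 8 mitochondrial members were lower at 4 d and 1 of each was higher, WARS and CARS2, where 13.5% of all genes were called lower and 13.1% higher. MARS2 changed most, by -1.42 ± 0.29 log2 (edgeR adjusted p = 0.00336), with 4.68, 12.6 and 8.97 CPM at 4 d, against 27.4, 22.1 and 20.7 CPM at 2 d. The WARS step (0.47 ± 0.14) was lost without 4 h replicate 2, any 2 d replicate, or 4 d replicate 1 or 3, at an edgeR adjusted p of up to 0.0876. IARS fell by 0.88 ± 0.17 and AARS by 0.82 ± 0.17. These step counts ran from 3 to 8 (cytosolic) and 3 to 10 (mitochondrial) when single libraries were left out. The share of all genes called for the step moved too, from 16.3% without 2 d replicate 2 to 32.7% without 0 h replicate 2. The lowest cytosolic count, 3, came without 2 d replicate 2, and the mitochondrial 3 without 2 d replicate 1, 2 d replicate 2 or 4 d replicate 1. Without the 3 libraries apart by GC content, 11 cytosolic and 12 mitochondrial members were called for this step, with 43.3% of all genes, against 26.6% with every library.

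The scaffold genes of the multi-synthetase complex fell with the enzymes. EEF1E1 measured 4.68, 2.68 and 3.14 CPM at 4 d, against 17.9, 19.1 and 14.2 CPM at 0 h. AIMP2 was at -1.72 ± 0.16 and AIMP1 at -0.82 ± 0.15 log2 (edgeR adjusted p = 8.97e-07 and 3.37e-04). All 3 of 3 were called lower at 2 d and 4 d, where 18.7% and 29.7% of all genes were, and their median at 4 d was -1.72.

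Of 26 tested genes of the ATF4 pathway and amino acid response, 15 fell and 4 rose at 4 d against 0 h, with a median of -1.44, where 29.7% of all genes were called lower and 28.1% higher. PHGDH, the first enzyme of serine synthesis, had 13.1, 9.82 and 10.6 CPM at 4 d, against 137, 177 and 161 CPM at 0 h. Its libraries were far apart, at -3.82 ± 0.22 log2 (edgeR adjusted p = 1.68e-08). CHAC1, a glutathione-degrading ATF4 target, was at -4.26 ± 0.67, with 0 reads in 2 of 3 libraries at 4 d, and PSAT1, also of serine synthesis, was at -3.40 ± 0.24. ASNS, asparagine synthetase, fell by 2.02 ± 0.24, TRIB3 by 2.41 ± 0.22 and ATF5 by 1.27 ± 0.19. ATF4 itself gave 599.6, 413 and 439 CPM at 4 d, against 597, 718 and 567 CPM at 0 h, overlapping and not called (-0.38 ± 0.19 log2, edgeR adjusted p = 0.106). At 2 d ATF4 was called lower without overlap, at -0.60 ± 0.19 log2 (edgeR adjusted p = 0.026). DDIT3, whose span overlaps MARS in RefSeq, was not called (0.24 ± 0.22). CEBPB, a C/EBP factor of myeloid cells, rose by 2.20 ± 0.23 and SLC7A11, the cystine transporter, by 1.87 ± 0.20. The other 2 that rose, PPP1R15A and VLDLR, reached 0.63 and 0.52.

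Lists of genes that act before and after tRNA charging were counted at 4 d in the same way, beside the 29.7% of all genes called lower. Of 29 tRNA modification genes 24 fell and 0 rose, led by METTL1, a tRNA methyltransferase (-2.63 ± 0.23), and the pseudouridine synthase PUS7 (-2.60 ± 0.17). Of 21 tRNA processing and export genes 16 fell, led by RPP40, a subunit of RNase P (-3.44 ± 0.37), and 1 rose, the splicing endonuclease subunit TSEN34 (1.43 ± 0.18). RNA polymerase III and its factors had 10 of 21 lower and 0 higher, led by POLR3G (-2.58 ± 0.50). Downstream of charging, 5 of 9 cytosolic elongation and termination genes and 10 of 15 mitochondrial translation genes fell and none rose, led by EIF5A (-1.87 ± 0.18) and LRPPRC (-1.85 ± 0.19). Medians were -1.02 for modification, -1.07 for processing, -0.44 for polymerase III, -0.63 for elongation and -0.70 for mitochondrial translation.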

How the data were processed

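Bulk RNA-seq of 12 HL-60 libraries was analysed. The deposited values are raw counts of reads per gene, 1 file per library. Per the submitters' processing notes the authors used FastQC, Trim Galore 0.6.7, HISAT2 2.1.0, HTSeq 1.99.2 and hg19. The annotation, kit and strand setting were not named in the sources used here.

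In R 4.3.3 with edgeR 4.0.16, genes passing filterByExpr (12671 of 26364) were scaled by TMM (factors 0.864 to 1.098) and fitted with 1 mean per time over all 12 libraries, with 8 residual degrees of freedom. Quasi-likelihood tests were Benjamini-Hochberg adjusted over all tested genes, and calls needed an adjusted p under 0.05. The SE follows from the fold change and its F statistic. DESeq2 1.42.0 and voom of limma 3.58.1 were alternatives, beside other scaling, filters, GC and length offsets, a replicate term and left-out libraries.

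GC content and exon length came from GENCODE on GRCh38 by symbol (23774 genes). Values in every library are given for members called at 2 or more times against 0 h without overlap, for the 3 with the widest replicate spread and for those that differed in direction, and a few more were added after their values were seen. From other lists the largest called changes are named. The members and lists were chosen with earlier results of these data known.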

Additional observations from a re-analysis of the deposited data

How the results depend on the processing

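Counts of called members moved as follows. At 4 h against 0 h, the cytosolic count of 1 became 0 with no filter on low counts, with the 6 libraries compared alone, at an adjusted p under 0.01 and at 2-fold, 2 with DESeq2, and 3 without the 3 libraries apart by GC content. It ran from 0 to 2 when single libraries were left out. The mitochondrial count of 0 became 1 with DESeq2, with GC and length offsets and without those 3 libraries, and ran from 0 to 1. Over all genes, 6.23% were called at 4 h, 8.42% with no filter, 2.18% with the 6 libraries alone and 10.6% with DESeq2. The share was 10.5% with GC and length offsets, 24.9% without those 3 libraries and 3.91% at 2-fold. It was 5.32% when the dropped set of 3 included 4 h replicate 1. At 2 d against 0 h, the cytosolic 14 became 4 at 2-fold and ran from 11 to 15. The mitochondrial 4 became 1 with library totals alone, 7 with GC and length offsets, 11 without the 3 libraries, and 0 at an adjusted p under 0.01 or at 2-fold, and ran from 0 to 6. Of all genes, 35.6% were called at 2 d, and 32.4% with library totals alone. That share was 44.4% with GC and length offsets, 52.8% without the 3 libraries and 16.7% at 2-fold. At 4 d against 0 h, 14 and 12 ran from 12 to 15 and from 11 to 13. For 2 d against 4 h, 16 and 6 became 7 and 3 at 2-fold, and ran from 11 to 16 and from 5 to 7. Of all genes 34.5% were called there, and 16.9% at 2-fold. For 4 d against 2 d, the cytosolic 7 became 11 without the 3 libraries, 3 at an adjusted p under 0.01 and 0 at 2-fold, and ran from 3 to 8; the mitochondrial 9 became 2 and 1 at those thresholds and ran from 3 to 10. For that step 26.6% of all genes were called, 43.3% without the 3 libraries and 11.6% at 2-fold. Over any difference between times, 15 and 12 ran from 15 to 17 and from 11 to 13, beside 55.8% to 64.8% of all genes. The share of all genes at an adjusted p under 0.01 was not counted. Member counts at that threshold therefore cannot be set against the whole table. With single libraries left out, 24.2% to 38.4% of all genes were called at 2 d and 50.4% to 59% at 4 d. At 4 h against 0 h that range was 1.97% to 11.7%. It was 25.3% to 39.4% for 2 d against 4 h and 16.3% to 32.7% for 4 d against 2 d. The cause was not tested.

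With replicate number as a block, the cytosolic count was 0 at 4 h against 0 h and 4 at 4 d against 2 d, and the mitochondrial count was 2 at 2 d against 0 h and 5 at 4 d against 2 d. Of all genes, that block left 3.01% called at 4 h and 28.5% at 2 d against 0 h, and 20% at 4 d against 2 d. Deviations of same-numbered libraries correlated at -0.809 to 0.671 over 18 pairs, so the numbers were not taken to pair the samples.

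Of 4500 single-gene values under alternatives, 4190 kept their call or its absence, 188 lost a call, 122 gained one and 0 called values reversed; 160 values changed sign where neither was called. VARS was called only with no filter, with adjusted p of 2.26e-08 at 2 d and 0.0444 at 4 d against 0 h, though its libraries overlapped. Scaling by library totals moved the median of all genes at 4 d by 0.067 log2. Depth limits PARS2, WARS2 and FARS2, which had the lowest mean levels of the members at 4 d.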
